A study of Mus musculus with 12 samples.

Results

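The genes described here encode the kinase complex mTORC1, the proteins that switch it on and off, and a kinase that it activates: Mtor, Rptor, Mlst8, Akt1s1 and Deptor for the complex, Ddit4, Tsc1, Tsc2 and Rheb for its control, and Rps6kb1 for the S6 kinase. They were taken by gene name from a table of 11587 genes, and all 10 were found, as 36 of its 26260 transcripts. The set was selected on knowledge of the pathway and, for Ddit4, chosen by its total RNA scores, whose difference between the genotypes was already known, so that difference, and the translation efficiency that contains it, are given as a description without a test. Ribosome profiling sequences the stretches of mRNA that ribosomes shield from nuclease (footprints) and, here, total RNA from the same lysate, and was applied to whole liver of C57BL/6 mice lacking Maf1 in every tissue (Maf1 KO) and of wild-type (WT) mice. MAF1 represses transcription by RNA polymerase III. Each genotype had 3 mice (KO1, KO2 and KO4, and WT1, WT2 and WT3), and each mouse gave a footprint and a total RNA library, 12 in all in 4 groups. All mice were killed at 9 PM. According to the labels every mouse was refed and aged 12 to 14 weeks, whereas the methods of the study give the lower end of that age range and free feeding. Scores of Maf1 were not analysed here, and the genotypes stand as labelled.

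mTORC1 is a protein kinase complex on the lysosome that promotes protein synthesis and cell growth and holds back autophagy when amino acids, energy and insulin are available. mTOR is its catalytic subunit, RAPTOR recruits substrates, mLST8 binds the kinase domain, and PRAS40 (encoded by Akt1s1) and DEPTOR restrain it. The small GTPase RHEB activates it, the TSC1-TSC2 complex inactivates RHEB, and DDIT4 (also called REDD1), a protein made under stress and in response to glucocorticoids, acts through the TSC complex to lower mTORC1 activity. In liver the complex is known for its switch between fasting and feeding, and MAF1 is among the proteins that it phosphorylates. The values below are RNA and footprint levels and say nothing of kinase activity.

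Scores are the log2 normalized tag counts of the deposited table, averaged over the transcripts of a gene. How many reads a score rests on was unknown. Translation efficiency is, within a mouse, the footprint score less the total RNA score. Library medians over all genes ran from 8.75 to 9.34 in total RNA and from 7.17 to 8.02 in footprints, KO1 having the highest total RNA median and the lowest footprint median, and WT3 the highest footprint median. Because such an offset moves every gene of a library alike, differences were computed on the scores as deposited and again after each library was centred on its median. Hepatocyte markers, Alb among them, were all measured (8 of 8), and their summed level lay 12.13 to 12.96 log2 units above the total RNA library medians.

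Ddit4 lies on the minus strand of chromosome 10, from 59412423 to 59414518 (NCBIM37), and was represented by a single transcript. Its total RNA score was 8.44, 8.25 and 8.58 in WT1, WT2 and WT3, and 10.89, 9.38 and 9.06 in KO1, KO2 and KO4. Every Maf1 KO liver lay above every WT liver, with KO1 farthest up. The means were 9.78 ± 0.97 in Maf1 KO and 8.42 ± 0.17 in WT (SD, n = 3), a log2 difference of 1.35, or 2.55-fold, and 1.33 with libraries centred. The difference was 0.80 without KO1, 0.96 without KO1 after centring, and, as deposited, 0.88 without KO1 and WT3. Separation of the groups with Maf1 KO above WT was found in 4.07% of all genes as deposited and in 6.92% with libraries centred, and Ddit4 was the only member among them. By limma, 0.276% of all genes passed an adjusted p of 0.05 as deposited (32 genes) and 0.0173% with libraries centred (2 genes). The outcome for Ddit4 itself is not given, because the gene was included on this contrast.

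Upstream sequences are shown for Ddit4 and for Rheb, the members with the largest positive and negative total RNA differences, a choice made after the values were seen. They are the 250 bases before the annotated start in RefSeq on GRCm38.p6, a later build than that of the scores, at chr10:59951771-59952020 for Ddit4 and chr5:24842362-24842611 for Rheb, both on the minus strand. Capitals mark matches to the motifs searched.
Ddit4: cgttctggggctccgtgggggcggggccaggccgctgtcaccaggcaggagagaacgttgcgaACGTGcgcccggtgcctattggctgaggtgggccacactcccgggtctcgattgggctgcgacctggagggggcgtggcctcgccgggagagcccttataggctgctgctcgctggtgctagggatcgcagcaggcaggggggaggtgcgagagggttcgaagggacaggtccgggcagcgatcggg
Rheb: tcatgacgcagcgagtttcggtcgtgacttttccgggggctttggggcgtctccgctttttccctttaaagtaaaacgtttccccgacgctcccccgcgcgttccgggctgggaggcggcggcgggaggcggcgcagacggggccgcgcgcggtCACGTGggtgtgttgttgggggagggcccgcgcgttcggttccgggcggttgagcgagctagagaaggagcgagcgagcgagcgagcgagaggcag
The search covered both strands for the E-box CACGTG, the cyclic AMP response element TGACGTCA, the ATF4 composite element TGATGCAA, the hypoxia core ACGTG, which lies within the E-box, and the glucocorticoid receptor half-site AGAACA. Ddit4 held a single match, the hypoxia core at 187 to 183 bases before the start, a sequence found in 16.6% of 32851 promoters of this length. Rheb held an E-box at 96 to 91 bases before the start, found in 6.02% of promoters, with the overlapping hypoxia core. Of the 9 members with a promoter in the RefSeq table, all except Deptor, Rptor also had the hypoxia core and Rps6kb1 the glucocorticoid receptor half-site (16.1% of promoters). The cyclic AMP response element (1.55%) and the ATF4 composite (0.791%) were in no member. These are matches of letters only.

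Footprints of Ddit4 were 8.48, 8.22 and 10.49 in WT1, WT2 and WT3 and 9.88, 9.75 and 9.46 in KO1, KO2 and KO4. As deposited the 3 Maf1 KO livers were close together and above WT1 and WT2, and WT3 was the highest of all 6 mice. Relative to the library medians the values were 1.10, 0.74 and 2.47 in WT and 2.71, 2.18 and 1.90 in Maf1 KO. On that scale KO1 was the highest and WT3 next to it, and the Maf1 KO livers were farther apart. The difference was 0.64 (SE 0.35, 95% interval -0.05 to 1.33, limma adjusted p = 1), and 0.83 with libraries centred (SE 0.40, adjusted p = 1). As deposited it was 1.35 without WT3 and passed the threshold (limma adjusted p = 0.00733), in a fit where 53 genes passed. It was 1.26 without KO1 and WT3 (limma adjusted p = 0.68). With libraries centred it was 1.34 without WT3 and did not pass (limma adjusted p = 0.36). Ddit4 was chosen by total RNA from the same livers, so its footprint tests are not independent of that choice. As deposited, standard errors of genes of large spread such as Ddit4 are also too small. With all mice kept, 0.0863% of all genes passed in footprints as deposited, which is 10 genes. None passed with libraries centred, where 464 genes had an unadjusted p under 0.05, and none of the 10 members passed on either scale.

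**Figure D1:**
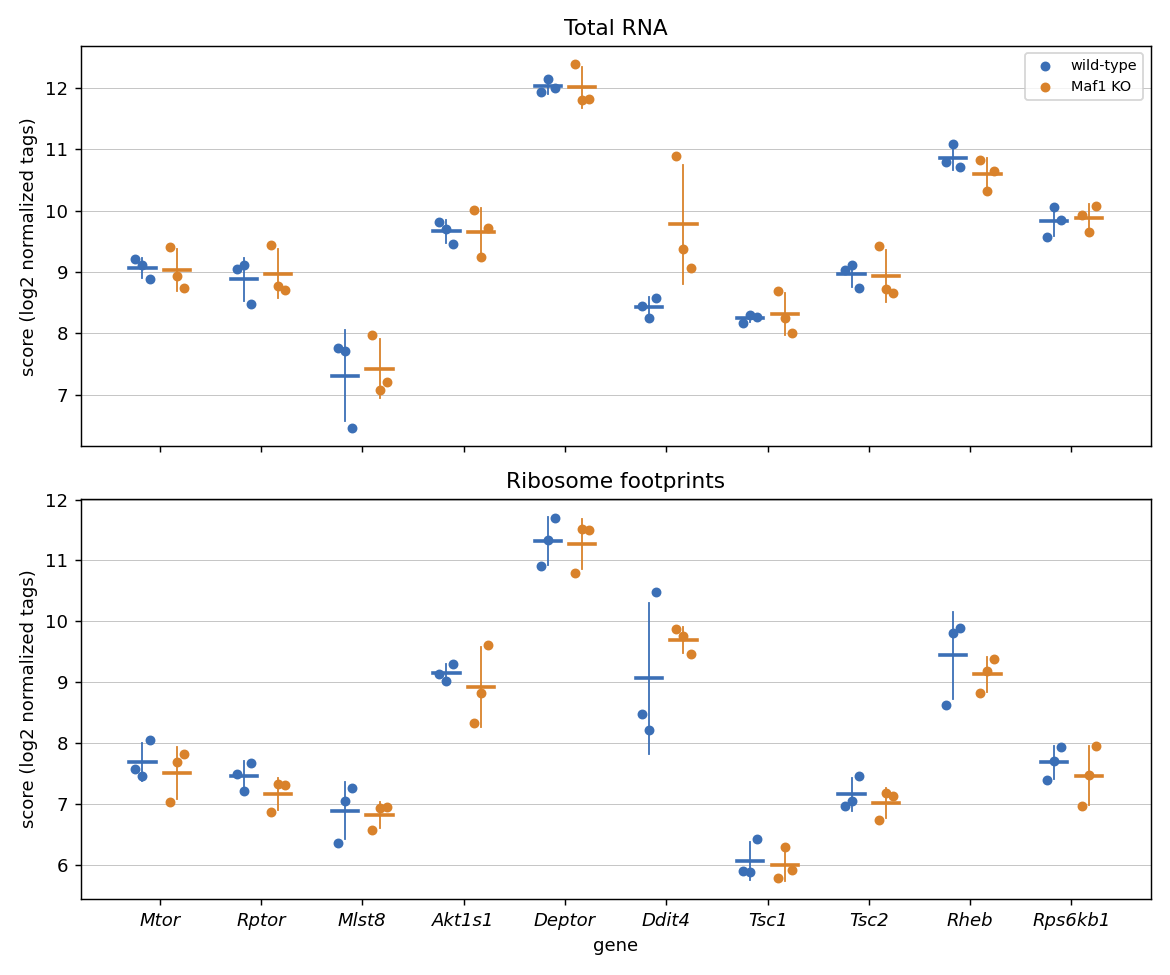
Scores (log2 normalized tags) of the 10 genes in total RNA (top) and ribosome footprints (bottom), as deposited, for WT mice (blue, WT1, WT2 and WT3 from left to right) and Maf1 KO mice (orange, KO1, KO2 and KO4), with horizontal bars at the mean and vertical lines of 1 SD (n = 3). Ddit4 separates the genotypes in total RNA, where KO1 stands at 10.89, and not in footprints, where WT3 stands at 10.49, while every other gene overlaps in both panels.

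Translation efficiency of Ddit4, centred on the median of all genes in each mouse, was 1.52, 1.40 and 2.54 in WT1, WT2 and WT3 and 1.01, 1.42 and 1.53 in KO1, KO2 and KO4. The groups overlapped, with WT3 highest and KO1 lowest. The difference was -0.50 with libraries centred and -0.71 as deposited, and its direction rested on those mice. Without both it was 0.39 as deposited and 0.011 with libraries centred, so it was near 0 once the library offsets were removed. In each of the 6 mice Ddit4 had the highest translation efficiency of the 10 genes, between the 91.5th and the 99.3rd percentile of all genes.

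Ddit4 also varied more than most genes by the SD pooled over the genotypes. Its pooled SD was 0.70 in total RNA and 0.89 in footprints, at the 98.2nd and 96.9th percentiles of all genes, where the medians of all genes were 0.30 and 0.40. With libraries centred the SDs were 0.51 and 0.71, at the 96.3rd and 95.4th percentiles. The median SD of all genes was then 0.20 in total RNA and 0.27 in footprints. As deposited, the SD of Ddit4 in total RNA was 0.97 in Maf1 KO and 0.17 in WT. In footprints it was 0.21 in Maf1 KO and 1.24 in WT, so the genotype with the larger spread was not the same.

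Markers of other liver cell types were set beside the Ddit4 values. Kupffer cell markers were higher in Maf1 KO total RNA in 9 of the 9 measured (10 listed), by a median of 0.58 with libraries centred. Their summed level, in log2 units above the library median, was 5.67, 6.10 and 5.63 in KO1, KO2 and KO4 and 5.14, 5.15 and 5.40 in WT1, WT2 and WT3. These groups did not overlap either, but KO2 and not KO1 was highest. Stellate cell markers were higher in 6 of 6, with summed levels of 3.60 to 4.03 in Maf1 KO and 3.49 to 3.71 in WT, and sinusoidal endothelial markers in 6 of 6, with 4.11 to 4.43 and 4.07 to 4.12. Of 4 cholangiocyte markers Sox9 was measured, at -3.35 to -2.18 relative to the library median in Maf1 KO and -3.37 to -2.87 in WT. Hepatocyte markers were higher in 4 of 8. The part of these cells in the Ddit4 difference was not tested, and in whole-liver extracts more cells of a type and more RNA per cell cannot be told apart.

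The 5 genes whose pattern over the 12 libraries was most like that of Ddit4, by the root mean square (RMS) difference between centred scores after the mean of each gene was removed within each library type, were Camk1d (0.31), Cebpd (0.35), Acacb, Spata2L and Tilz3b (0.38, 0.39 and 0.39). They were picked for that likeness out of 8002 genes, whose median distance from Ddit4 was 0.79, and the pattern of Ddit4 itself had an RMS of 0.75. Camk1d encodes a calcium-dependent kinase, and its total RNA score was 10.26 in KO1, 9.07 and 9.11 in KO2 and KO4, and 8.19, 8.56 and 9.13 in WT1, WT2 and WT3. Its genotypes overlapped, since WT3 lay above KO2 and KO4 as deposited. Cebpd encodes the transcription factor C/EBP-delta, and its total RNA score was 9.89, 9.09 and 8.48 in KO1, KO2 and KO4 and 8.38, 7.86 and 7.91 in WT1, WT2 and WT3. Acacb, the acetyl-CoA carboxylase of the mitochondrial surface, was 11.50, 9.97 and 10.46 in the Maf1 KO livers and 9.86, 9.33 and 9.87 in WT. In each of these 3 genes KO1 was the highest total RNA library, as in Ddit4. In footprints as deposited WT3 was the highest of the WT livers for all 5 genes, and for Camk1d (8.49), Cebpd (9.00), Spata2L (9.08) and Tilz3b (12.55) it was the highest of all 6 mice. With libraries centred that held for Spata2L alone. Tilz3b, which the table describes as a glucocorticoid-induced leucine zipper mRNA, is listed apart from Tsc22d3, the gene of that protein, so reads may be shared between them. No other member was near Ddit4 by this distance. Tsc1 was the closest at 0.71, at the 15.7th percentile of the 8002 genes, and Rheb the farthest at 0.91, at the 91.1st percentile.

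**Figure D2:**
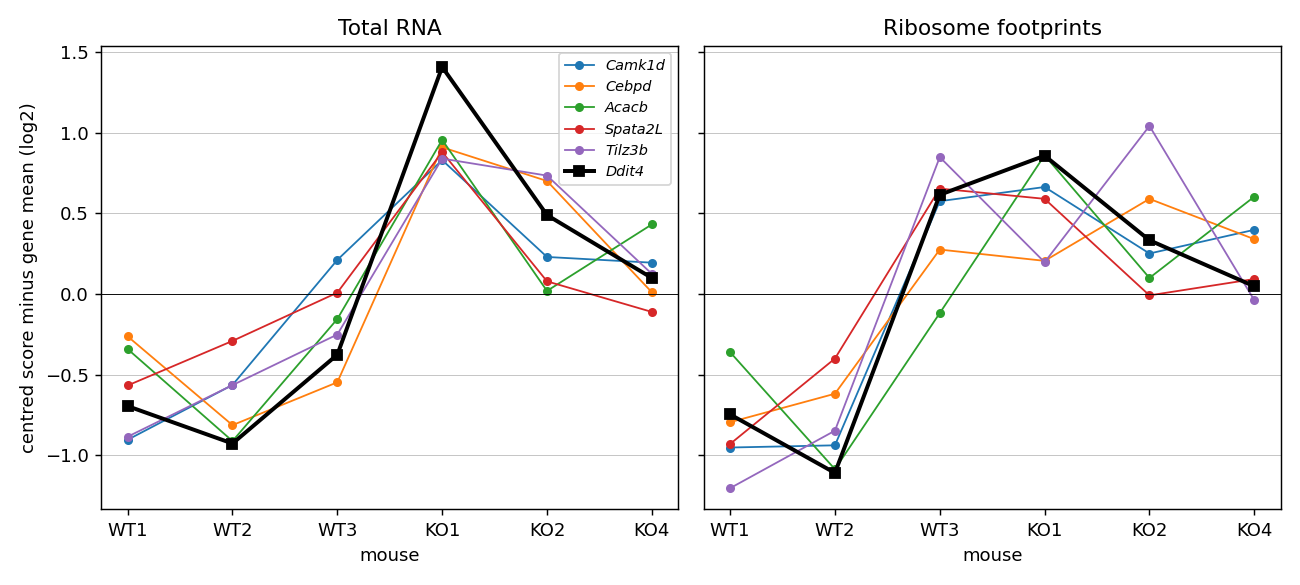
Centred score minus the mean of the gene (log2) in the 6 total RNA libraries (left) and the 6 footprint libraries (right) for Ddit4 (black squares) and the 5 genes nearest to it in pattern (coloured circles), lines only joining the points of a gene. KO1 is the highest total RNA library for each of the 6 genes, and WT3 lies above WT1 and WT2 in footprints for each.

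Tsc1 and Tsc2 encode hamartin and tuberin, the subunits of the complex through which DDIT4 acts, and neither differed between the genotypes by more than the spread between mice. Total RNA of Tsc1 was 8.18, 8.29 and 8.26 in WT1, WT2 and WT3 and 8.69, 8.25 and 8.01 in KO1, KO2 and KO4. As deposited KO1 was the highest and KO4 the lowest of the 6, with the WT livers between them. The difference was 0.08 (SE 0.28, limma adjusted p = 1), and 0.06 with libraries centred (95% interval -0.28 to 0.40). Tsc1 footprints were between 5.78 and 6.29 in Maf1 KO and between 5.88 and 6.42 in WT, and their difference was -0.07 as deposited and 0.12 centred. Tsc2 total RNA was 9.03, 9.12 and 8.73 in WT and 9.43, 8.73 and 8.66 in the Maf1 KO livers. The difference was -0.02 as deposited and -0.04 centred (95% interval -0.34 to 0.26). Tsc2 footprints, centred, had a pooled SD of 0.06, at the 0.69th percentile of all genes, and differed by 0.05 (95% interval -0.32 to 0.41). Of the 10 Tsc2 transcripts, the lowest had WT means of 7.88 in total RNA and 6.03 in footprints, and it was the only 1 with a footprint difference above 0 (0.39, against -0.25 to -0.19 in the others). Tsc2 and Mlst8 both lie on the minus strand of chromosome 17, with 116.9 kb between them.

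Rheb, the GTPase that switches the complex on, had the largest negative difference of the 10 genes in total RNA. Its scores were 10.79, 11.09 and 10.71 in WT1, WT2 and WT3 and 10.82, 10.32 and 10.65 in KO1, KO2 and KO4. As deposited KO2 and KO4 lay below all WT livers and KO1 above WT1 and WT3, whereas with libraries centred KO1 and KO2 lay below all WT livers and KO4 above WT1. The difference was -0.27 (SE 0.26, limma adjusted p = 1), and -0.29 with libraries centred (95% interval -0.58 to 0.01, limma adjusted p = 0.593, unadjusted p = 0.0553). Leaving out single mice gave -0.38 to -0.13. Rheb footprints were 8.62, 9.81 and 9.89 in WT and 8.82, 9.19 and 9.39 in Maf1 KO. WT1 was the lowest of the 6 mice, next to KO1, and the difference was -0.31 as deposited and -0.12 centred (95% interval -0.69 to 0.45).

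Mtor, the catalytic subunit, had total RNA scores of 9.21, 9.12 and 8.89 in WT1, WT2 and WT3 and 9.41, 8.94 and 8.74 in KO1, KO2 and KO4. Its footprints were 7.57, 7.46 and 8.04 in WT and 7.03, 7.68 and 7.82 in Maf1 KO. The mice that bound these ranges in footprints were KO1 and WT3, which also had the lowest and highest footprint library medians. Differences of Mtor were -0.04 in total RNA and -0.18 in footprints as deposited, and -0.06 (95% interval -0.36 to 0.24) and 0.01 (95% interval -0.39 to 0.41) with libraries centred. Its 2 transcripts had WT means of 9.05 and 9.09 in total RNA.

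Rptor, the substrate-recruiting subunit, was between 8.48 and 9.11 in WT total RNA and between 8.71 and 9.44 in Maf1 KO, a difference of 0.09 (centred 0.07, 95% interval -0.27 to 0.42). In footprints it was between 7.20 and 7.68 in WT and between 6.87 and 7.33 in Maf1 KO. Its footprint difference of -0.29 became -0.10 with libraries centred (95% interval -0.51 to 0.31).

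Mlst8, the subunit that binds the kinase domain, was the most variable of the 9 genes other than Ddit4 in total RNA, at 7.75, 7.72 and 6.45 in WT1, WT2 and WT3 and 7.98, 7.09 and 7.21 in KO1, KO2 and KO4. WT3 stood apart below the others. The pooled SD, 0.46 with libraries centred, was at the 94.2nd percentile of all genes, and the difference was 0.10 (95% interval -0.54 to 0.73). Mlst8 footprints were 6.35, 7.05 and 7.26 in WT and 6.57, 6.92 and 6.94 in Maf1 KO, so that WT3, lowest in total RNA, was highest in footprints as deposited. With libraries centred WT3 was again lowest in total RNA but second lowest in footprints, above WT1. The centred footprint difference was 0.11 (95% interval -0.34 to 0.56). Its 4 transcripts carried identical values and gave no separate measurements.

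Akt1s1 and Deptor encode the inhibitory subunits of the complex. Akt1s1 total RNA was 9.82, 9.71 and 9.46 in WT and 10.00, 9.24 and 9.71 in Maf1 KO, a difference of -0.01 (centred -0.03, 95% interval -0.34 to 0.28). Its footprints as deposited were close together in WT, at 9.14, 9.01 and 9.30, and spread out in KO1, KO2 and KO4, at 8.32, 8.83 and 9.62. The footprint difference was -0.23 as deposited and -0.04 centred (95% interval -0.61 to 0.53). Deptor total RNA was 11.93, 12.15 and 11.99 in WT and 12.39, 11.81 and 11.83 in Maf1 KO, a difference of -0.02 (centred -0.04, 95% interval -0.29 to 0.22). Its footprints were 10.91, 11.34 and 11.70 in WT and 10.79, 11.51 and 11.50 in Maf1 KO, and the centred difference was 0.14 (95% interval -0.24 to 0.51). Deptor had the highest score of the 10 genes in both kinds of library in WT liver. In total RNA it lay between the 90.1st and 91.3rd percentiles of all genes.

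Rps6kb1, the S6 kinase that mTORC1 activates, was 9.58, 10.06 and 9.84 in WT total RNA and 9.93, 9.65 and 10.08 in Maf1 KO, a difference of 0.06 (centred 0.04, 95% interval -0.38 to 0.46). In footprints it was between 7.40 and 7.93 in WT and between 6.97 and 7.95 in Maf1 KO. The centred footprint difference was -0.03 (95% interval -0.49 to 0.43).

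Across the 9 genes other than Ddit4, no member passed in total RNA, footprints or translation efficiency on either scale, and the genotypes overlapped for each gene in each measure. In all genes the groups were separate in 5.5% for total RNA, 5.7% for footprints and 2.18% for translation efficiency as deposited, and in 13.9%, 9.1% and 7.35% with libraries centred. Their total RNA differences had a median of -0.01 where that of all genes was 0.00, with 4 above and 5 below 0. In footprints all 9 lay below 0 as deposited, with a median of -0.18, which was also the median of all genes, and with libraries centred 5 lay above and 4 below 0, with a median of 0.01. The intervals of the centred differences reached down to -0.58 (Rheb) and up to 0.73 (Mlst8) in total RNA. In footprints they reached -0.69 (Rheb) and 0.57 (Tsc1), and in translation efficiency -0.71 and 0.75 (both Mlst8). Differences within the interval of each gene remained possible in these mice. In translation efficiency 0.0173% of all genes passed as deposited, which is 2 genes. None passed with libraries centred, where 348 had an unadjusted p under 0.05.

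**Figure D3:**
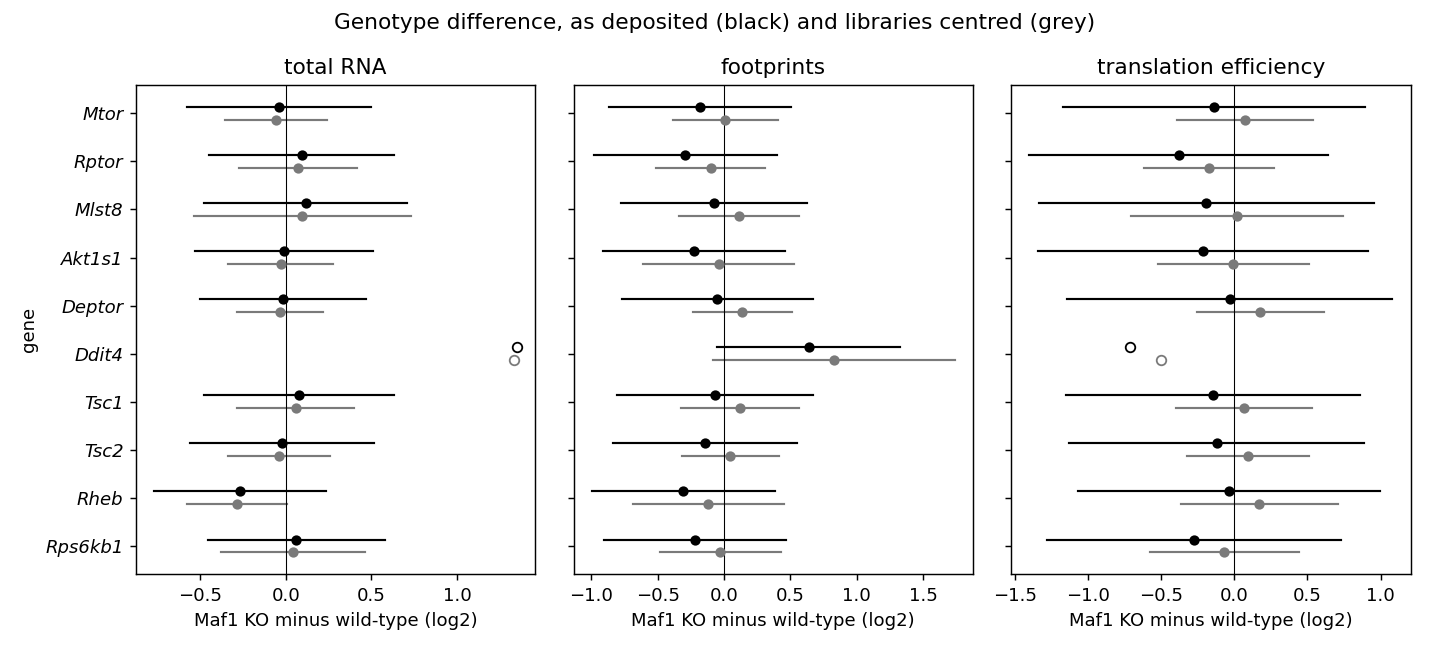
Difference between the genotypes (Maf1 KO mean minus WT mean, log2) of each gene in total RNA, footprints and translation efficiency, with scores as deposited (black) and libraries centred (grey), horizontal lines being 95% intervals from limma (3 mice a group). Open circles mark values of Ddit4 given without a test, 1.35 in total RNA and -0.71 in translation efficiency as deposited, and every interval drawn includes 0.

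Levels were then compared between the genes in WT livers, as score per coding kilobase (score minus log2 of the mean coding length in kilobases, NCBIM37 annotation). Deptor (11.75 ± 0.12, SD, n = 3) and Rheb (11.72 ± 0.20) led in total RNA and did not differ beyond their spread. Akt1s1 (10.39 ± 0.18), Rps6kb1 (9.96 ± 0.24), Ddit4 (8.97 ± 0.17) and Rptor (8.33 ± 0.35) followed, each separated from the next. Mlst8 (7.34 ± 0.74), Mtor (6.999 ± 0.164), Tsc2 (6.67 ± 0.20) and Tsc1 (6.45 ± 0.06) came last, and each overlapped its neighbour. In Maf1 KO livers Ddit4 moved up to 10.32 ± 0.97, next to Akt1s1 (10.38 ± 0.38) and overlapping it. In WT footprints the order per coding kilobase began with Deptor (11.05 ± 0.40), Rheb (10.30 ± 0.71), Akt1s1 (9.88 ± 0.14) and Ddit4 (9.60 ± 1.24), neighbours overlapping, and ended with Mtor (5.62 ± 0.31), Tsc2 (4.86 ± 0.27) and Tsc1 (4.27 ± 0.31), which were separate. The order depends on the coding length used. With the longest coding length of each gene Mtor (4.76) overlapped Tsc2 in footprints, and in total RNA Mtor (6.14) fell below Tsc1 and Rptor (6.88) below Mlst8. Whether the deposited scores had already been divided by length is not stated. Over all genes the WT total RNA score fell by 0.48 for each log2 unit of coding length, so the division may correct for length more than once and place the long genes Mtor, Tsc1 and Tsc2 too low. Without the division Deptor (12.03 ± 0.12) and Rheb (10.86 ± 0.20) were again highest in total RNA, but Mlst8 (7.31 ± 0.74) was lowest, and Mtor (9.07 ± 0.16) stood in the middle.

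Translation efficiency does not depend on that division, because the length is the same in both libraries of a mouse. It did vary with length itself. Over genes with a coding length, the WT score changed by -0.91 per log2 unit of longest coding length in footprints and by -0.49 in total RNA. The order below was not adjusted for length. Centred on the median of all genes, the WT means ran from Ddit4 (1.82 ± 0.62, SD, n = 3) through Mlst8 (0.76 ± 0.68), Akt1s1 (0.67 ± 0.18) and Deptor (0.48 ± 0.14) to Mtor (-0.19 ± 0.04), Rheb (-0.24 ± 0.42), Rptor (-0.24 ± 0.21), Tsc2 (-0.62 ± 0.04), Rps6kb1 (-0.96 ± 0.29) and Tsc1 (-0.99 ± 0.21). Ranges of neighbours were separate between Deptor and Mtor, between Rptor and Tsc2 and between Tsc2 and Rps6kb1. In Maf1 KO livers the same 4 genes were above the median of all genes in every mouse, and Ddit4 (1.32 ± 0.27), Mlst8 (0.78 ± 0.15), Akt1s1 (0.67 ± 0.35) and Deptor (0.66 ± 0.21) kept their order. Tsc1 (-0.93 ± 0.03) and Rps6kb1 (-1.03 ± 0.09) were lowest, below Tsc2 (-0.53 ± 0.14). In terms of all genes, Mlst8 lay on average at the 76.7th percentile in WT and the 81.3rd in Maf1 KO, although its total RNA lay at the 21.4th and 21.3rd. Rps6kb1 lay at the 19.9th and 17.2nd percentiles in translation efficiency and at the 66.5th and 67.8th in total RNA. Of the genes whose products restrain mTORC1, Ddit4, Akt1s1 and Deptor were in the upper part of this order and Tsc1 and Tsc2 in the lower part. The longest coding lengths were 687, 984 and 1227 bases for Ddit4, Akt1s1 and Deptor, and 3483 and 5436 for Tsc1 and Tsc2. Rheb, the shortest at 552 bases, lay near the middle. The part of length in this order was not tested.

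**Figure D4:**
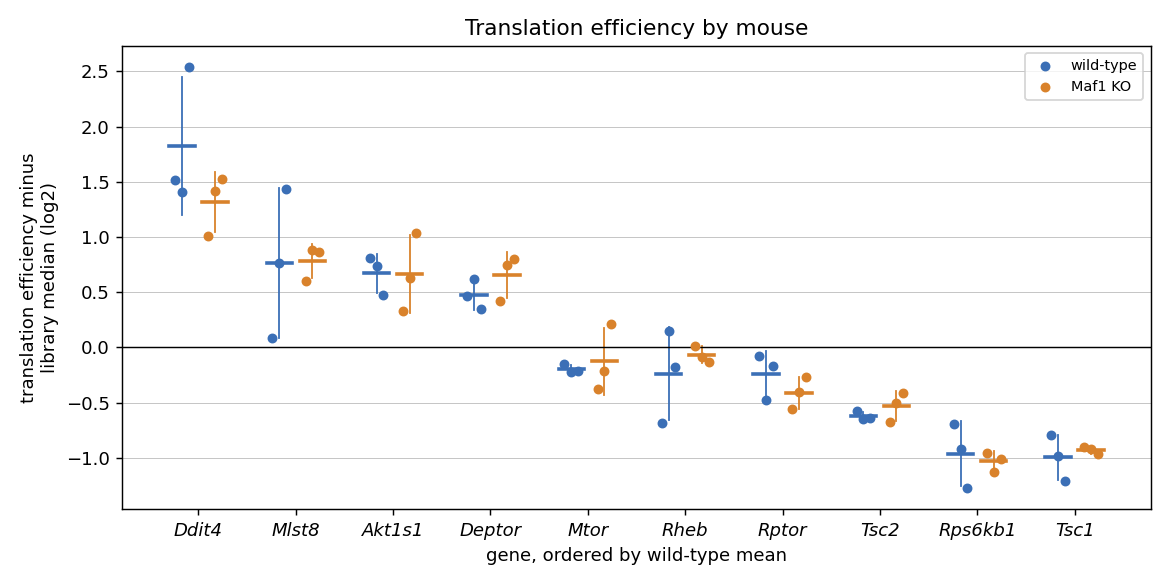
Translation efficiency (footprint score less total RNA score in each mouse, log2, centred on the median of all genes in that mouse) of the 10 genes, ordered by WT mean, for WT mice (blue) and Maf1 KO mice (orange), with bars at the mean and lines of 1 SD (n = 3). The line at 0 is the median of all genes. Ddit4, Mlst8, Akt1s1 and Deptor lie above it and Rptor, Tsc2, Rps6kb1 and Tsc1 below it in all 6 mice.

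Genes around the complex were read from lists that name the rest of the pathway. Of 65 such genes 56 were measured, and none passed in total RNA, footprints or translation efficiency on either scale, where limma called 0.276%, 0.0863% and 0.0173% of all genes as deposited. In total RNA 18 lay above and 38 below 0, with a median of -0.04, against 0.00 over all genes. Over all genes 5844 lay above and 5743 below 0. With libraries centred the medians were -0.06 and -0.02, with 13 pathway genes above and 43 below 0, against 5400 and 6187 of all genes. Without KO1 and WT3 the centred pathway counts were 23 above and 33 below. In footprints the median of the pathway genes was -0.20, against -0.18 over all genes. There 12 lay above and 44 below 0, against 2519 and 9068 of all genes. With libraries centred 26 pathway genes lay above and 30 below 0.

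By role, the energy and stress inputs had a median of -0.03 in total RNA, with 2 of 10 above 0. With libraries centred the genotypes were separate in total RNA for 13.9% of all genes. Of these 10 genes they were separate for 1, Sesn3, which encodes a sestrin, a stress-induced inhibitor of mTORC1 (0.41 centred, limma adjusted p = 0.532). Among 9 genes of insulin input (median -0.04, with 2 above 0), 2 had separate genotypes, and the larger of the falls was that of Pik3ca, the catalytic subunit of the insulin-activated lipid kinase (-0.26 centred, adjusted p = 0.627 by limma). The list of Rag GTPases, the Ragulator that anchors them to the lysosome and the amino acid sensors had 18 of 24 genes measured. Genes of the Ragulator were not among those measured. The 18 had a median of -0.05, with 5 above 0. Genotypes were separate for 3 of the 18, among them Rragd, a Rag GTPase, which differed by -0.48 centred (adjusted p = 0.491 by limma). Targets and effectors of mTORC1, such as the 4E-BP translation repressors, had 15 measured genes with a median of -0.03 and 6 above 0, and no gene among them had separate genotypes in total RNA with libraries centred. In footprints 3 of the 15 were separate as deposited and 4 with libraries centred, where 5.7% and 9.1% of all genes were, and none passed. Maf1 KO lay below WT on both scales for Rps6, a ribosomal protein that S6 kinase phosphorylates (-0.71, centred -0.52), Eif4b, an initiation factor that it also phosphorylates (-0.60, centred -0.41), and Eif4e, the cap-binding protein that the 4E-BPs hold (-0.50, centred -0.31). Tfe3, a transcription factor of lysosomal genes, was above with libraries centred (0.28). These 4 were named after their values were seen. The 4 further subunits of mTORC2, the sister complex that shares mTOR, mLST8 and DEPTOR, had a median of 0.02, with 3 above 0. None of these lists held a call.

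Ddit4 is known as a target of several stress and hormone pathways, so other known targets of the same pathways were set beside it. The lists of these targets were chosen with earlier results of these data known. Of 11 glucocorticoid-induced genes 10 lay above 0 in total RNA, with a median of 0.46 (0.44 centred), and 1 passed as deposited, Cebpd (1.10, SE 0.28, limma adjusted p = 0.0313; centred 1.08, adjusted p = 0.267). Tsc22d3, which encodes a glucocorticoid-induced leucine zipper protein, was 13.19, 12.60 and 11.92 in KO1, KO2 and KO4 and 11.68, 11.94 and 11.72 in WT. Its genotypes overlapped as deposited, with a difference of 0.79, and were separate with libraries centred (0.77). Sgk1, a kinase induced by glucocorticoids, was 9.55, 8.80 and 8.60 in the Maf1 KO livers and 8.26, 8.43 and 8.33 in WT. It did not pass, although the genotypes were separate, and like Ddit4 it was highest in KO1. Of the 11 genes 3 had separate genotypes in total RNA as deposited and 4 with libraries centred, where 5.5% and 13.9% of all genes did. Fkbp5, a chaperone of the glucocorticoid receptor, was the gene of the list below 0 (-0.18). Footprints of 5 of the 11 lay above and of 6 below 0 as deposited (median -0.07), against 2519 and 9068 of all genes. With libraries centred 7 lay above and 4 below 0 in footprints (median 0.12), against 5936 and 5651. Without WT3 the footprint counts were 9 above and 2 below 0 on both scales. In translation efficiency all 11 lay below 0 as deposited, with a median of -0.53, and 10 with libraries centred, with a median of -0.32. Of all 11587 genes 9297 lay below 0 as deposited (median -0.19) and 5392 with libraries centred (median 0.02). The counts of the 11 genes rested on WT3. Without it 8 lay above and 3 below 0 as deposited (median 0.06), and 5 above and 6 below with libraries centred (median -0.0018). As deposited, leaving out WT3 also moved genes outside this list upward. The 56 other pathway genes went from 14 above and 42 below 0 to 36 above and 20 below. In total RNA 10 of 11 lay above 0 without WT3 on both scales (median 0.60 as deposited and 0.65 centred). Without KO1 it was 9 of 11 as deposited (median 0.36) and 10 with libraries centred (median 0.53).

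Of 5 measured ATF4-induced genes 3 lay above 0 in total RNA, with a median of 0.24, and none passed. With libraries centred 1 of the 5 had separate genotypes, where 13.9% of all genes did. It was Atf5, a transcription factor gene of the stress response (0.47 centred, limma adjusted p = 0.491). Of 6 hypoxia-induced genes 1 lay above 0, with a median of -0.06, and Bnip3, a mitochondrial protein of hypoxic cells, differed by -0.39 centred (limma adjusted p = 0.491). Of 7 p53-induced genes 3 lay above 0, with a median of -0.01, and 1 passed. That gene was Cdkn1a, a cyclin-dependent kinase inhibitor, which rose by 2.29 (SE 0.31, limma adjusted p = 5.9e-10; centred 2.27, adjusted p = 0.00466), while Ccng1, a cyclin induced by p53, differed by -0.16 centred without passing. Medians over all genes in total RNA were 0.00 as deposited and -0.02 centred. Tsc22d3, Sgk1 and Fkbp5 were named after their values were seen.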

How the data were processed

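Livers of 3 Maf1 KO and 3 WT mice were lysed in polysome buffer, extract of Drosophila S2 cells was added as an internal standard, and footprint and total RNA libraries were prepared in parallel. By the study's methods and processing notes, the authors mapped tags to dm6 and mm9 with an aligner not given in the sources used, counted those on coding sequences and normalized with edgeR. The deposited table holds log2 normalized counts per transcript, a score on the log2 scale made by the authors. Its header does not say whether the correction by fly material or a division by length is included, and depth is unknown, so no count model was used.

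Gene scores were means over transcripts (11587 genes), and translation efficiency was the difference of footprint and total RNA scores. The genotype comparison in each measure used limma 3.58.1 in R 4.3.3. Prior variance followed abundance, genotype was the only term, and tests were two-sided. Benjamini-Hochberg adjustment was over all genes, with a threshold of 0.05. In simulated data 100 genes changed by 1 log2 unit and 100 by 2. With library offsets simulated, 37 unchanged genes were called for total RNA, 48 for footprints and 8 for translation efficiency. Recovery in that order was 67%, 21% and 1% for changes of 1, and 100%, 97% and 38% for changes of 2. Without offsets, unchanged genes called were 8, 10 and 4, and recovery for changes of 1 was 66%, 43% and 20%. A call can thus be false, and a gene that did not pass may still differ. Prior degrees of freedom were infinite as deposited, so genes of large spread, such as Ddit4, have standard errors that are too small there. The members and gene lists were chosen with earlier results of these data known. Named genes were all members, other listed genes past the threshold in any measure, per list the largest rise and fall in centred total RNA without overlap, and the 5 genes nearest to Ddit4 among those with means above the 0.25 quantile in both library types. Coding lengths and positions came from GENCODE annotation on NCBIM37 (the same assembly as mm9), and promoters from RefSeq on GRCm38.p6 (9 of 10 members matched). The alternatives tried were leaving out each mouse, centred libraries, quantile normalization, a filter on low genes (0.25 quantile), each gene's top transcript, other coding lengths, common and robust priors, an interaction term, a block for the replicate number and a threshold of 0.1. Leaving out KO1 and WT3 together, centring without KO1, WT3 or both, and counting list genes without those mice were chosen after seeing the data.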

Additional observations from a re-analysis of the deposited data

How the results depend on the processing

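With libraries centred, or quantile normalized, the number of genes passing fell from 32 to 2 and 2 in total RNA, from 10 to 0 and 0 in footprints and from 2 to 0 and 0 in translation efficiency. The total RNA count was 21 with low genes removed and 0 without KO1 and WT3. The footprint count was 4 with low genes removed, 20 with a common prior, 4 with a robust prior and 0 without KO1 and WT3. The translation efficiency count was 0 with low genes removed, 9 with a common prior, 1 with a robust prior, 6 at a threshold of 0.1, 1 as an interaction term and 0 without KO1 and WT3. Leaving out single mice gave 1 to 30 genes in total RNA, 0 to 53 in footprints and 1 to 5 in translation efficiency. Fewer samples enter these fits, and otherwise the cause was not tested.

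Ddit4 differed by 0.80 to 1.71 in total RNA, 0.22 to 1.35 in footprints and -1.05 to -0.08 in translation efficiency with single mice left out, and its translation efficiency difference turned to 0.39 without KO1 and WT3 as deposited and to 0.011 with libraries centred as well. Without WT3 its footprints passed as deposited, where 53 genes passed, and not with libraries centred. Signs of the other members turned under several alternatives without a call. In footprints, centring and quantile normalization gave 0.0086 and 0.0049 for Mtor, 0.11 and 0.095 for Mlst8, 0.14 and 0.19 for Deptor, 0.12 and 0.089 for Tsc1 and 0.047 and 0.031 for Tsc2. In translation efficiency they gave 0.0701 and 0.055 for Mtor, 0.018 and 0.06998 for Mlst8, 0.18 and 0.15 for Deptor, 0.066 and 0.054 for Tsc1, 0.091 and 0.076 for Tsc2 and 0.17 and 0.16 for Rheb. Quantile normalization gave 0.041 for Deptor in total RNA, and the top transcript gave -0.027 for Rps6kb1 in total RNA and 0.0046 for Tsc1 in footprints. With single mice left out, total RNA differences that turned had ranges of Akt1s1 -0.19 to 0.19, Deptor -0.21 to 0.083, Mlst8 -0.31 to 0.34, Mtor -0.23 to 0.11, Rps6kb1 -0.065 to 0.18, Rptor -0.14 to 0.22, Tsc1 -0.11 to 0.23 and Tsc2 -0.27 to 0.12. Footprint ranges were Akt1s1 -0.58 to 0.072, Deptor -0.25 to 0.19, Mlst8 -0.34 to 0.11, Mtor -0.34 to 0.061, Rps6kb1 -0.46 to 0.0299, Tsc1 -0.22 to 0.11 and Tsc2 -0.24 to 0.011. Translation efficiency ranges were Akt1s1 -0.53 to 0.26, Deptor -0.26 to 0.39, Mlst8 -0.68 to 0.42, Mtor -0.44 to 0.29, Rheb -0.41 to 0.27, Rptor -0.62 to 0.0011, Tsc1 -0.33 to 0.15 and Tsc2 -0.31 to 0.26.

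Levels per coding kilobase with the longest coding length were 6.14 for Mtor, 6.88 for Rptor, 9.69 for Akt1s1 and 9.17 for Rps6kb1 in total RNA and 4.76, 5.46, 9.17 and 7.02 in footprints, and the top transcript of Rps6kb1 gave 10.29 in total RNA. With that length Mtor no longer lay above Tsc1 in total RNA or apart from Tsc2 in footprints, and Rptor lay below Mlst8 in total RNA.

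The genotypes share replicate numbers 1 and 2 only, and nothing in the labels ties a number to a day or litter, so the numbers were read as names. Deviations of same-numbered mice from their group means correlated across genes at 0.23 and 0.27 in total RNA, -0.06 and 0.10 in footprints and -0.10 and 0.10 in translation efficiency. In a fit with the replicate block, KO4 and WT3 stand alone under their numbers and add nothing to the genotype difference. That difference then rests on KO1 against WT1 and KO2 against WT2, which are not known to be pairs. With the replicate block the counts were 9 in total RNA and 292 in footprints. The footprint difference of Ddit4 was 1.47 (limma adjusted p = 5.2e-06), a value to which WT3, its highest footprint library as deposited, did not contribute. Nothing is read from these calls. The block turned total RNA to 0.016 for Mtor, -0.21 for Mlst8, 0.059 for Deptor, 0.0011 for Tsc2 and -0.0298 for Rps6kb1, footprints to 0.042 for Mlst8, 0.028 for Deptor and 0.15 for Tsc1, and translation efficiency to 0.25 for Mlst8 and 0.17 for Rheb.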
